A study of Mus musculus with 12 samples.

Results

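Pancreatic acinar cells make the enzymes that digest food, and store them, the proteases as inactive precursors, in zymogen granules until a meal releases them into the duct. The 10 genes described here encode 8 such enzymes or their precursors, Cpa1, Cpb1, Ctrb1, Cela2a, Prss2, Pnlip, Cel and Amy2b, and 2 proteins that acinar cells secrete with them, Reg1 and Zg16. They were chosen by symbol from a table of 23361 genes, and all 10 were found there. They are defining products of acinar cells and are not among the genes T cells are known for. Islets lie embedded in this exocrine tissue.

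RNA was sequenced from regulatory T cells (Tregs), the Foxp3-expressing CD4 T cells that restrain immune responses, in a mouse model of autoimmune diabetes. The 12 libraries formed 4 groups of 3, which were Lag3-deficient Tregs from pancreatic islets, Wt Tregs from islets, Lag3-deficient Tregs from non-draining lymph nodes (NDL) and Wt Tregs from NDL. Lag3 is an inhibitory receptor that binds MHC class II. The mouse strain, age and sex, the way Lag3 was removed, the sort gates and any pooling of animals are not stated in the labels. The headers number the libraries of each group 1, 2 and 1 again, written here as 1a, 2 and 1b, and 3 values of a group are given in that order. No label ties the 3 libraries of a group to separate animals, and p-values therefore measure the spread between these libraries, which may be technical.

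Treg and T cell markers were present in every library, with 11 genes summing to 6368 to 11420 CPM (rescaled counts divided by effective library size) in islets and 6557 to 7418 CPM in NDL. Foxp3 itself measured 483, 224 and 341 CPM in Lag3-deficient islet libraries and 337, 472 and 392 CPM in Wt ones. Lag3, the targeted gene, was listed at 1, 0 and 0 rescaled counts in Lag3-deficient and at 40, 48 and 120 in Wt islet libraries. In NDL it was at 1, 0 and 3 in Lag3-deficient and 2, 5 and 6 in Wt libraries, which overlap, so Lag3 does not check the genotype labels there. The deposited values are counts that had been brought to nearly the same total in every library, 15232498 to 15370098, so depth is mostly hidden. In 3 libraries the values skip whole numbers at regular steps, which gives the depth before scaling, about 5.50 M reads for Lag3-deficient islet 2, 9.73 M for Wt NDL 2 and 13.8 M for Lag3-deficient NDL 1b. Lag3-deficient islet 2 had thus been multiplied by 2.79, and 8.53% of the tested genes were listed at 0 there, against 3.72 to 4.72% in the other islet libraries. The columns called 1b held 1.26 to 1.68% of their signal in ribosomal Rn45s RNA, against 0.149 to 0.571% in the others.

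Acinar cells switch on their secretory genes together through PTF1, a complex of the basic helix-loop-helix factor Ptf1a with Rbpjl. PTF1 binds a CANNTG box and a nearby TTTCCC box. In the 250 bases before the start of transcription, both boxes stood with at most 30 bases between them in 5 of the 9 genes that had a promoter in the RefSeq table (GRCm38.p6), searched on both strands and allowing no overlap between the boxes. The same arrangement was found in 5.31% of 27025 promoters. CANNTG by itself was in 8 of the 9, and in 66.0% of all promoters, and TTTCCC in 6 of the 9, and in 21.9% of all. A match describes the letters only. Starts are those of RefSeq. The GENCODE M21 gene spans given further on begin upstream of them for Reg1 and Cela2a, so those stretches lie inside, or partly inside, the GENCODE spans. The 220 bases before the start are shown for the 5 genes with the arrangement, because PTF1 is the best known regulator of these genes; capitals mark the CANNTG box and the TTTCCC box, which reads GGGAAA on the other strand.
Cpa1, chr6:30638998-30639217, plus strand: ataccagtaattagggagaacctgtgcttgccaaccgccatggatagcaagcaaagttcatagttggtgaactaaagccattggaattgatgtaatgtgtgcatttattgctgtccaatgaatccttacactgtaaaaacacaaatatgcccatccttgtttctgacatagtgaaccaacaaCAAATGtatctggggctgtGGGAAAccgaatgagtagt
Ctrb1, chr8:111691011-111691230, minus strand: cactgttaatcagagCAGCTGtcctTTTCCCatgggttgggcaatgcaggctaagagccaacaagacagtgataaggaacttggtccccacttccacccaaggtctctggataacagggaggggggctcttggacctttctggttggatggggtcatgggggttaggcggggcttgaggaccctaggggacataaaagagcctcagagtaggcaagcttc
Cela2a, chr4:141826006-141826225, minus strand: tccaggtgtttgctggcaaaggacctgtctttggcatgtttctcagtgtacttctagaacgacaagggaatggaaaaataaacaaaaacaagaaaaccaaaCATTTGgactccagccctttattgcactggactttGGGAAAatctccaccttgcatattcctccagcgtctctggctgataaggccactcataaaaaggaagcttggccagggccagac
Cel, chr2:28563404-28563623, minus strand: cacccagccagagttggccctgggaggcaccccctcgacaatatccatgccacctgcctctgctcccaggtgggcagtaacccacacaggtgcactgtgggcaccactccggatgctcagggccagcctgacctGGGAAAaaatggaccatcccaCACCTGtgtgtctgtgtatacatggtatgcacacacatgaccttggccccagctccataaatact
Reg1, chr6:78425763-78425982, plus strand: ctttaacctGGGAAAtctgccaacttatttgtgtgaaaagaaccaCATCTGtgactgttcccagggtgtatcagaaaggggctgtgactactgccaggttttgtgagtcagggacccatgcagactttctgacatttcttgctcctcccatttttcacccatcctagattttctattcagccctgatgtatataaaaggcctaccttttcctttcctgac

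In NDL libraries these genes were at or next to 0. Of the 60 values that 10 genes have in 6 NDL libraries, 9 were above 0, and the highest was 4 rescaled counts, for Cel in Lag3-deficient NDL 1b. In islet libraries 54 of 60 values were above 0. The 10 genes together made up 406, 33.6 and 256 CPM in Lag3-deficient islet libraries, and 2365, 165 and 662 CPM in Wt ones. No NDL library exceeded 0.449 CPM. The islet libraries thus spanned a 70.3-fold range among themselves, with Lag3-deficient 2 lowest and Wt 1a highest. Even in Wt islet 1a the 10 genes took only 0.236% of the effective library size. Since these are bulk samples, fewer cells of a type and less RNA per cell cannot be told apart.

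**Figure D1:**
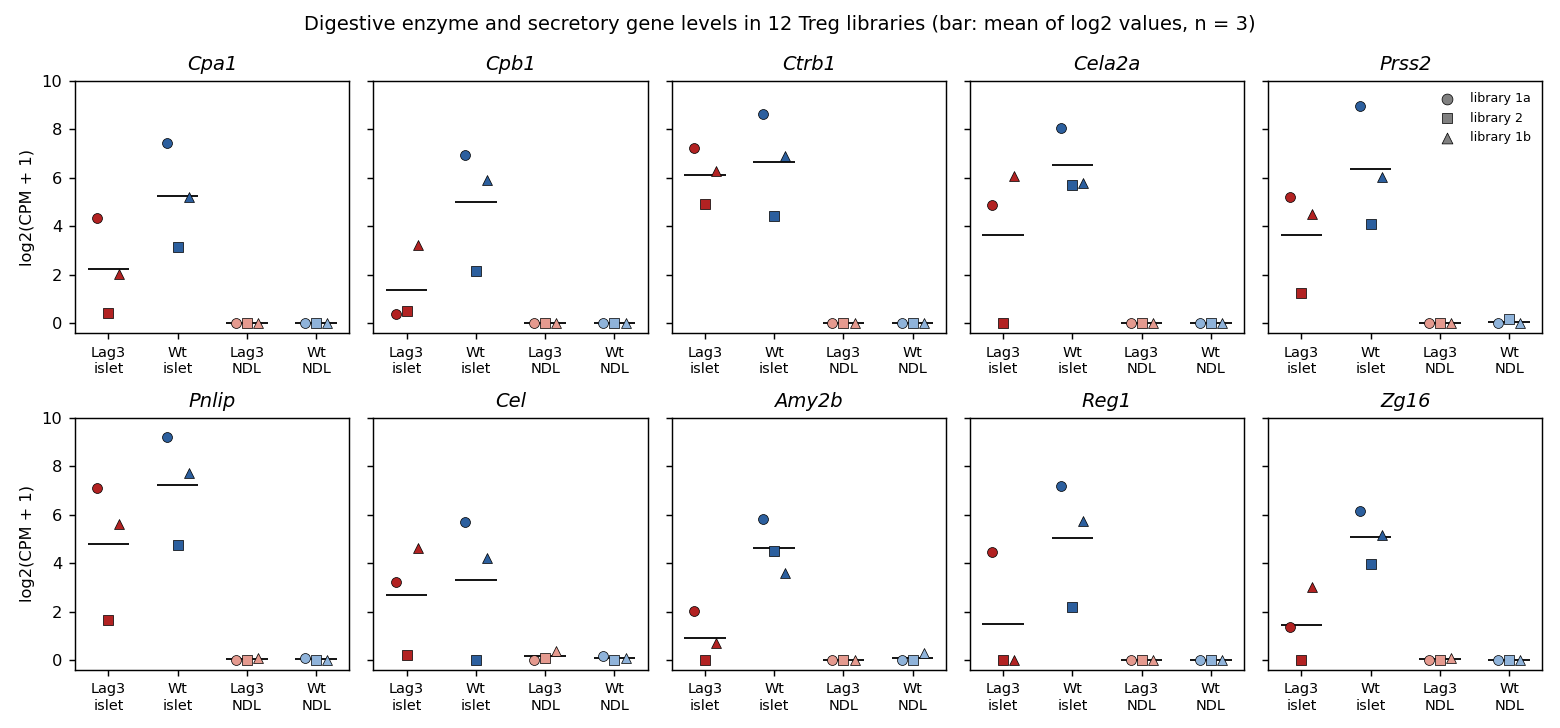
Level of each of the 10 genes in every library, on the log2(CPM + 1) scale, with 1 point per library (circle 1a, square 2, triangle 1b) and a bar at the mean of the log2 values of each group (n = 3). The NDL libraries lie at or next to 0 in all 10 panels, and Wt islet 1a is the highest islet library for each gene.

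Carboxypeptidases trim amino acids from the C-terminal ends of peptides. Cpa1 (chromosome 6, 30639218 to 30645363, plus strand, GRCm38) removes aromatic and aliphatic residues, and measured 19.1, 0.330 and 3.05 CPM in Lag3-deficient islet libraries against 171, 7.85 and 36.6 CPM in Wt ones. Cpb1 (chromosome 3, 20248264 to 20275733, minus strand), which removes lysine and arginine, measured 0.301, 0.441 and 8.32 CPM in the Lag3-deficient and 123, 3.52 and 59.7 CPM in the Wt islet libraries. For both genes the lowest Wt library, 2, lay inside the range of the Lag3-deficient libraries. All 6 NDL libraries were listed at 0 for both. Cpb1 also parted from Cpa1 within a library, since Lag3-deficient islet 1a held 254 rescaled counts of Cpa1 and 4 of Cpb1.

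Serine proteases cut proteins from within. Ctrb1 (chromosome 8, 111686519 to 111691010, minus strand) encodes chymotrypsinogen, whose active form cuts after large hydrophobic residues, and measured 150.4, 29.2 and 76.1 CPM in Lag3-deficient against 392, 20.2 and 118 CPM in Wt islet libraries. Its groups overlapped, and Wt islet 2 lay below all 3 Lag3-deficient libraries. Cela2a (chromosome 4, 141814962 to 141826160, minus strand), an elastase, measured 28.7, 0 and 66.9 CPM in the Lag3-deficient and 264, 51.6 and 54.2 CPM in the Wt islet libraries. It was listed at 0 in Lag3-deficient islet 2, where Ctrb1 was listed at 530, and Lag3-deficient 1b lay above Wt 2 and Wt 1b. Ctrb1 and Cela2a were at 0 in all 6 NDL libraries. Prss2 (chromosome 6, 41521787 to 41525079, plus strand) encodes a trypsinogen, which once cleaved cuts after lysine and arginine and activates the other precursors. It measured 36.3, 1.38 and 21.6 CPM in Lag3-deficient and 501, 16.1 and 65.6 CPM in Wt islet libraries, and 1 NDL library, Wt 2, listed it at 2. Wt islet 1a stood far above the next library, and the Prss2 mean of 194 ± 267 CPM in Wt islets (SD, n = 3) rested largely on it; the islet groups overlapped.

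Lipases split fats. Pnlip (chromosome 19, 58652498 to 58681788, plus strand) hydrolyses triglycerides. It measured 138, 2.15 and 48.3 CPM in Lag3-deficient islet libraries, and 592, 25.8 and 212 CPM in Wt ones. Wt islet 2 again fell between the Lag3-deficient libraries. Cel (chromosome 2, 28555795 to 28563403, minus strand), the bile-salt-dependent lipase that splits cholesterol esters, measured 8.29, 0.165 and 23.7 CPM in Lag3-deficient and 50.8, 0 and 17.3 CPM in Wt islet libraries. It was listed at 0 in Wt islet 2 and had the most NDL libraries above 0, 4 of 6, with 1 to 4 rescaled counts each. Its islet and NDL libraries therefore overlapped.

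Amy2b (chromosome 3, 113147656 to 113156727, minus strand), an amylase gene that cuts starch, measured 3.02, 0 and 0.624 CPM in Lag3-deficient and 55.3, 21.8 and 11.2 CPM in Wt islet libraries. All 3 Lag3-deficient libraries lay below all 3 Wt libraries. GENCODE M21 annotates this copy as an unprocessed pseudogene, and RefSeq as protein coding. Its transcript matches that of Amy2a2 at 97.9% of bases over 99.0% of its length, and Amy2a2, Amy2a3, Amy2a4 and Amy2a5 were listed at 0 in all 12 libraries, so the amylase copy that gave these reads is uncertain. The trypsin genes also form a family of like copies. The closest transcript to Prss2, of Gm10334, matched at 87.2% over 99.5% of its length and was listed at 0 in all 6 islet libraries, and read sharing was not tested. A Ctrc transcript matched 29.3% of the length of Cela2a at 99.7%, so these genes may share reads.

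Reg1 and Zg16 are secreted but digest nothing. Reg1 (chromosome 6, 78422711 to 78428667, plus strand), a C-type lectin of pancreatic juice also called lithostathine, measured 20.7, 0 and 0 CPM in Lag3-deficient and 146, 3.52 and 52.8 CPM in Wt islet libraries. It was thus listed at 0 in 2 of 3 Lag3-deficient libraries and in none of the Wt islet libraries, although Wt 2 lay below Lag3-deficient 1a. Zg16 (chromosome 7, 127050156 to 127087328, minus strand), a lectin of the zymogen granule membrane, measured 1.58, 0 and 7.01 CPM in Lag3-deficient and 69.2, 14.5 and 34.4 CPM in Wt islet libraries. Like Amy2b, it did not overlap between genotypes. In NDL, Reg1 was at 0 in every library and Zg16 at 1 rescaled count in a single one.

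Per kilobase of exon, the order of the mean levels was read within each genotype, and whether the orders differ was not tested. In Lag3-deficient islets Ctrb1 led at 97.1 CPM per kb, followed by Pnlip at 28.6, Prss2 at 24.2 and Cela2a at 18.5 CPM per kb. In Wt islets Prss2 was at 238, Ctrb1 at 202, Pnlip at 126, Reg1 at 74.6 and Cela2a at 71.5 CPM per kb. The lowest were Amy2b and Cpb1 in Lag3-deficient islets, at 0.769 and 0.920 CPM per kb, and Cel in Wt islets, at 10.8 CPM per kb. These means are carried by few libraries. The SD over Wt islet libraries exceeded the mean for Prss2, Ctrb1, Cpa1, Reg1, Pnlip and Cel. That SD includes the range between libraries that the genes share, so it does not measure differences between genes within a library. Differences between neighbours in these orders were not tested.

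The first comparison was of tissue, and asked how far the genes separated islet from NDL libraries. Every member passed the filter on low values, 3 or more libraries with 10 or more rescaled counts, through islet libraries alone, so a difference was built into that choice and a count of members adds no support. Averaged over both genotypes, 7 of the 10 members passed as higher in islets with limma (adjusted p under 0.05 over 10868 genes), against 0.819% of all tested genes. They were Ctrb1 (limma adjusted p = 0.00103), Pnlip (0.00748), Prss2 (0.016), Cela2a (0.0165), Zg16 (0.0296), Cpa1 (0.0423) and Amy2b (0.0451). Cpb1 (0.0766), Reg1 (0.115) and Cel (0.19) did not pass. On the log2(CPM + 1) scale, which understates changes of weak genes, the difference was 5.98 ± 1.07 for Pnlip, 4.99 ± 1.00 for Prss2, 3.25 ± 0.71 for Zg16, 2.87 ± 0.92 for Cel and 2.73 ± 0.63 for Amy2b (± SE). No fold is given for Cpa1, Cpb1, Ctrb1, Cela2a and Reg1, which were listed at 0 in every NDL library. The 6 islet libraries all lay above the 6 NDL libraries for Cpa1, Cpb1, Ctrb1, Pnlip and Prss2, while 1.32% of all tested genes did so. The count fell to 4 without any 1 of Lag3-deficient islet 1a or 1b or of the 6 NDL libraries, and to 1 without all 1b columns, where 8 members could be tested. It was 5 without Wt islet 1a and 9 without Wt islet 2.

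Within Wt cells 3 members passed as higher in islets, against 0.184% of all tested genes. These were Amy2b (limma adjusted p = 0.0439), Ctrb1 (0.044) and Zg16 (0.044), all close to the threshold, and Pnlip missed it (0.059). For 9 of the 10 genes, Cel being the exception, all Wt islet libraries lay above all Wt NDL libraries, as they did for 8.37% of all tested genes. The number passing was 8 without Wt islet 2 and 4 without Lag3-deficient islet 2. It was 3 without Lag3-deficient islet 1a, 1 without Lag3-deficient islet 1b, Wt islet 1b or Lag3-deficient NDL 1b, and 0 without Wt islet 1a or any other NDL library.

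Lag3-deficient islet and NDL libraries gave 0 members passing with limma, against 0.12% of all tested genes as higher, and 4 of the 10 at an unadjusted p under 0.05, where 8.71% of all tested genes were. The lowest limma adjusted p belonged to Ctrb1, at 0.0777, the member present at 29.2 CPM or more in each Lag3-deficient islet library. Cpa1, Cpb1, Ctrb1, Pnlip and Prss2 were higher without overlap, as were 5.44% of all tested genes. With voom weights and with RLE size factors the count was 1. Both tissue comparisons were made in the same model, and neither tests whether the genotypes differ.

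That question was put directly to the islet libraries, with the spread of each gene still pooled over all 12 libraries. All 10 genes had lower estimates in Lag3-deficient than in Wt islet libraries, as did 60.4% of all tested genes, and 0 of 10 passed with limma, where 0.0% of all genes did; with voom weights 0 passed as well. The median log2 difference was -2.94 for the 10 genes and -0.22 for all tested genes. With RLE size factors it was -2.87 for the 10 and -0.03 for all genes. At an unadjusted p under 0.05 there were 5 of the 10 members, against 5.74% of all tested genes. These 5 were Cpa1, Cpb1, Reg1, Zg16 and Amy2b. Each reached 10 rescaled counts in all 3 Wt islet libraries but not in all 3 Lag3-deficient ones, and would not have passed the filter without Wt libraries. A lower Lag3-deficient level was thus favoured by the filter, and neither this count nor a lack of overlap for these genes adds support. Cela2a and Cel, listed at 0 and 3 in Lag3-deficient islet 2, would not have passed without Wt libraries either. The number of lower estimates and the median of the 10 carry the same limit. Amy2b had the largest difference, -3.74 ± 0.90 (limma adjusted p = 0.85), at 1.21 ± 1.59 CPM in Lag3-deficient against 29.4 ± 23.0 CPM in Wt islets (SD, n = 3 each). Zg16 differed by -3.62 ± 1.01 (limma adjusted p = 0.85), at 2.86 ± 3.67 CPM in Lag3-deficient against 39.4 ± 27.6 CPM in Wt islets. These 2 genes were the members whose genotypes did not overlap, while 6.03% of all tested genes were lower without overlap. Cpb1, Reg1 and Cpa1 differed by -3.64 ± 1.17, -3.56 ± 1.30 and -3.02 ± 1.23, Cela2a by -2.86 ± 1.45, Prss2 by -2.72 ± 1.41 and Pnlip by -2.43 ± 1.51.

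Ctrb1 and Cel showed the smallest genotype differences, -0.50 ± 1.32 and -0.61 ± 1.30 (limma adjusted p = 0.998 for each), both within 1 SE of 0. Each changed sign when a single library was left out. Without Lag3-deficient islet 2 the difference was 0.11 for Ctrb1 and 0.61 for Cel, and without Wt islet 1a it was 0.49 for Ctrb1 and 0.59 for Cel. Leaving out single libraries moved the median of the 10 both ways. It was -1.80 without Lag3-deficient islet 2 and -2.02 without Wt islet 1a, but -3.55 without Lag3-deficient islet 1a and -3.84 without Wt islet 2. Amy2b stayed between -4.31 and -3.16, and Zg16 between -4.40 and -2.89, over all 12 leave-outs. No member passed in any of them, while 16 other genes did without Lag3-deficient islet 1b. In summed level, Lag3-deficient islets averaged 232 ± 187 CPM and Wt islets 1064 ± 1154 CPM (SD, n = 3 each). With each library left out in turn, the mean was 145 CPM without 1a, 331 CPM without 2 and 219.9 CPM without 1b in Lag3-deficient islets. In Wt islets it was 414 CPM without 1a, 1514 CPM without 2 and 1265 CPM without 1b. Lag3-deficient islet 2, the shallowest of the 3 libraries whose depth could be read, held 6 of the 10 genes, and its values of 3, 6, 8, 25 and 39 for Cel, Cpa1, Cpb1, Prss2 and Pnlip stand for about 1, 2, 3, 9 and 14 reads. The part of depth in the genotype difference was not tested.

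**Figure D2:**
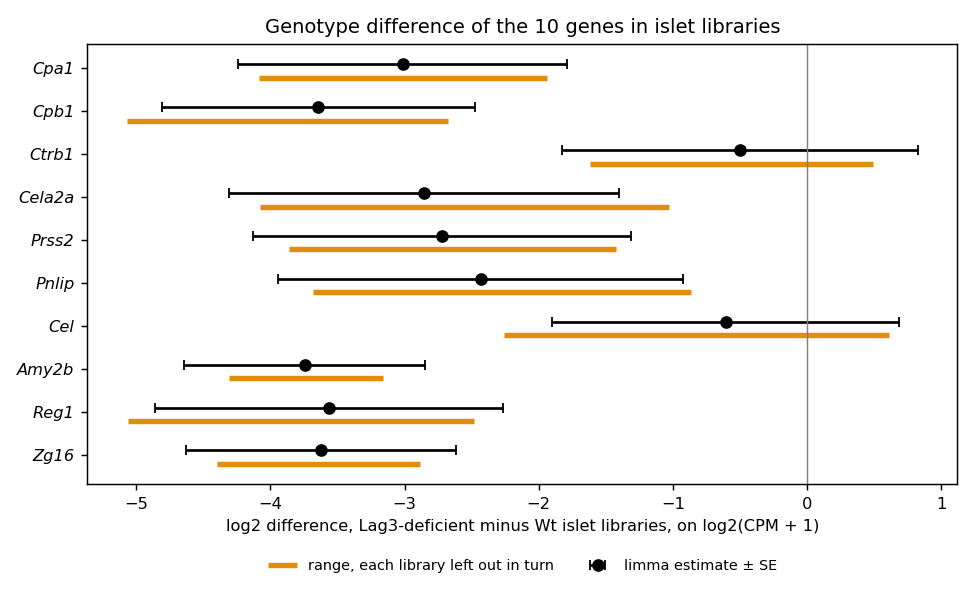
Log2 difference between Lag3-deficient and Wt islet libraries for each gene on the log2(CPM + 1) scale, with the limma estimate ± SE in black and, in orange, the range when each of the 12 libraries is left out in turn. Every estimate is below 0, and the orange ranges of Ctrb1 and Cel cross 0.

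In NDL the genotypes could not be compared in practice, because the highest value of any member was 0.299 CPM in a Lag3-deficient and 0.217 CPM in a Wt library. Estimates lay between -0.09 and 0.07 (limma adjusted p = 1 for each), with 0 of 10 members and 0.0% of all genes passing, 0 members and 2.72% of all genes at an unadjusted p under 0.05, and 0 members passing with voom weights. The difference between the genotype effects in islets and in NDL therefore repeats the islet values, from -3.66 for Zg16 to -0.50 for Ctrb1, with 0 of 10 and 0.0% of all genes passing, 3 members and 4.02% of all genes at an unadjusted p under 0.05, and 0 members passing with voom weights (limma adjusted p = 0.9998 for each).

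The mix of the 10 transcripts was not the same in all islet libraries. Shares are of reads, which also depend on transcript length, and are compared between libraries. Ctrb1 took 37.0, 86.7 and 29.8% of their summed signal in Lag3-deficient islet libraries, and 16.6, 12.3 and 17.8% in Wt ones. It led in each Lag3-deficient library, and the 2 groups did not overlap in this share. Nor did they overlap in the shares of Cpa1, Zg16, Amy2b and Prss2, which were lower in the Lag3-deficient libraries. The gap was narrow for Cpa1, Zg16 and Prss2. The highest Lag3-deficient and lowest Wt shares were 4.713 and 4.76% for Cpa1, 2.741 and 2.925% for Zg16, and 8.926 and 9.786% for Prss2. The shares of a library add up to a fixed total, so a high Ctrb1 share lowers the others. Pnlip led in Wt islet 1a and 1b, at 25.1 and 32.1%, and Cela2a in Wt islet 2, at 31.3%. Amy2b took 13.2% in Wt islet 2 and at most 2.34% in any other islet library. Wt islet 2 also lacked Cel, at 0, and held Cela3b, another elastase gene, at 1 rescaled count, although Cela2a stood at 703. No test was made on these shares, which were picked out after their values were seen.

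**Figure D3:**
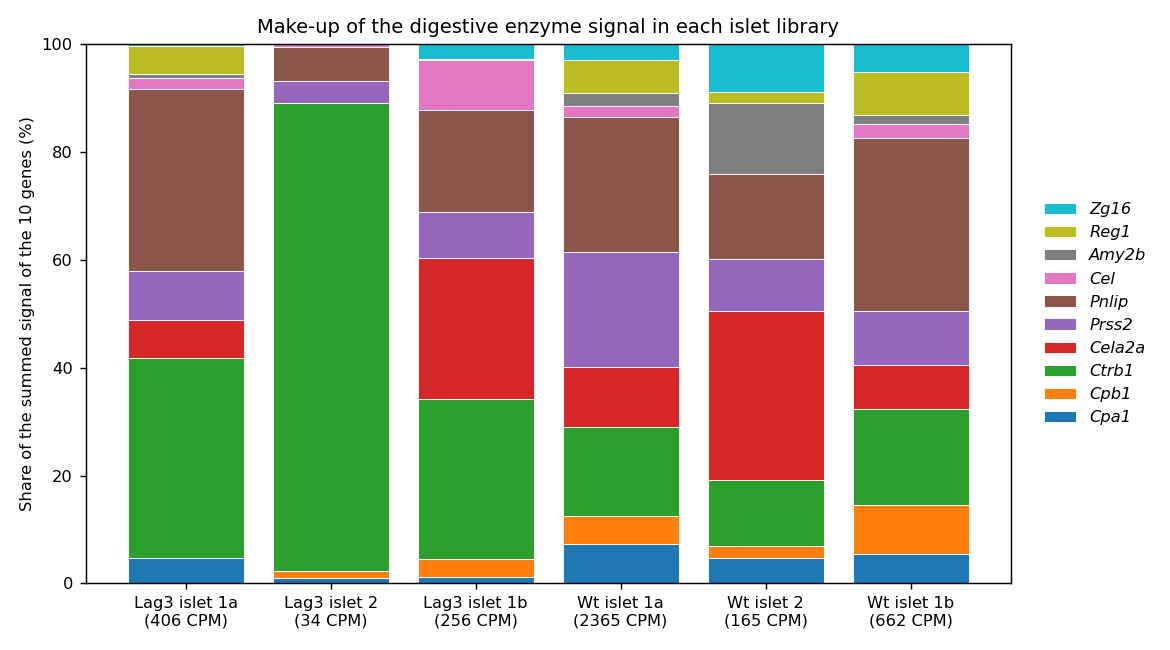
Share of each gene in the summed signal of the 10 genes, in percent, for the 6 islet libraries, with the summed level in CPM under each bar. Ctrb1 fills 86.7% of the bar of Lag3-deficient islet 2, which has the lowest sum, and 12.3 to 37.0% of the other bars.

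The order of the 10 genes agreed moderately between islet libraries. Over 15 pairs of libraries, Spearman's rho across the 10 genes had a median of 0.57 and ran from 0.08, between Lag3-deficient 2 and Wt 2, to 0.89, between Wt 1a and Wt 1b. Pairs within Lag3-deficient islets had rho of 0.56 to 0.59, pairs within Wt islets 0.36 to 0.89, and pairs across genotypes 0.08 to 0.83. Across the 6 islet libraries, the log2 levels of 2 members correlated at a median Pearson r of 0.79 over 45 pairs. The closest pairs were Pnlip with Prss2, Cpa1 with Reg1 and Cpa1 with Prss2, at 0.97 each, and the loosest was Amy2b with Cel, at 0.30. Without Lag3-deficient islet 2 the median r was 0.67 and the lowest -0.06. These values describe 6 libraries that share a scaling step, and genes are not independent replicates.

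Other acinar secretory genes, 40 of which were in the table, followed the same libraries. They summed to 381, 3.08 and 198 CPM in Lag3-deficient islet libraries, to 2104, 97.6 and 561 CPM in Wt ones, and to at most 4.85 CPM in NDL. The ratio of the 10 genes to this list was 1.07 to 1.69 in 5 islet libraries and 10.9 in Lag3-deficient islet 2, where trypsinogen genes Try4 and Try5, the ribonuclease gene Rnase1 and the colipase gene Clps were at 0, 0, 0 and 8 rescaled counts. Most of the 16 list genes tested also reached the filter through islet libraries alone, which sets the direction between tissues. Averaged over genotypes, 4 of the 16 passed as higher in islets, against 0.819% of all tested genes. Those 4 were Rnase1 (limma adjusted p = 0.0203), Try5 (0.041), Try4 (0.0454) and Clps (0.0492). Try5 measured 21.1, 0 and 7.29 CPM in Lag3-deficient and 260.2, 9.98 and 43.2 CPM in Wt islet libraries, and Rnase1 29.6, 0 and 15.6 CPM in Lag3-deficient and 189.8, 25.1 and 66.9 CPM in Wt ones. For both the Wt islet 1a library was the highest, as it was for the 10 genes. Of the pancreatic elastase genes, Cela3b and Cela1 averaged 49.4 and 46.8 CPM in islet libraries and did not pass. Between genotypes in islets 0 of the 16 passed, where 0.0% of all genes did, and all 16 had lower estimates, as did 60.4% of all tested genes. The median was -1.71 for the list and -0.22 for all genes. Most of the 16 would not have passed the filter without Wt islet libraries. This favours a lower Lag3-deficient level, so neither the direction nor the median adds support.

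Most of the listed regulators of the acinar programme were near 0 in the islet libraries. The 10 genes, products of that programme, took at most 0.24% of the effective library size there, so values near 0 do not show that weaker transcripts were absent. Ptf1a was listed at 0, 0 and 2 rescaled counts in Lag3-deficient and at 0, 1 and 2 in Wt islet libraries, and Rbpjl at 1, 0 and 0 in Lag3-deficient and 0, 1 and 1 in Wt ones. Bhlha15, also called Mist1, a factor that matures secretory cells, stood at 0, 3 and 2 in Lag3-deficient and 1, 1 and 7 in Wt islets, and at 78 in Wt NDL 1a. Of 8 such factors in the table only Xbp1, which secretory cells and lymphocytes both use, passed the filter, at 109.6, 228 and 106 CPM in Lag3-deficient and 101, 82.5 and 39.3 CPM in Wt islets. It was highest in Lag3-deficient islet 2, where the 10 genes were lowest.

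Genes of endocrine cells, which make the islet hormones, were weaker and less regular. The 16 endocrine genes summed to 8.59, 3.74 and 38.4 CPM in Lag3-deficient islet libraries, to 234, 10.6 and 11.5 CPM in Wt ones, and to at most 1.09 CPM in NDL. The ratio of the summed 10 genes to this list ran from 6.65 to 57.8 over the islet libraries, so the lists did not move in proportion. The glucagon gene Gcg measured 0.0754, 1.54 and 21.6 CPM in Lag3-deficient and 148, 6.01 and 5.97 CPM in Wt islets, and was highest in Wt islet 1a, as were the 10 genes. The insulin genes were weak, with Ins2 at 38, 0 and 239 rescaled counts in Lag3-deficient and 316, 20 and 7 in Wt islets, and Ins1 at 69, 6 and 0 in Lag3-deficient and 1, 1 and 62 in Wt islets. Only Gcg and Ins2 could be tested, and 0 passed between tissues or genotypes. Somatostatin, Sst, and amylin, Iapp, were above 1 rescaled count in Wt islet 1a (375 and 264), and in Wt islet 2 for Sst (26), and at 0 in all Lag3-deficient islet libraries.

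Markers of further cell types also stood higher in some islet libraries. The 12 duct genes summed to 54.0, 48.2 and 70.4 CPM in Lag3-deficient and 71.4, 3.01 and 51.7 CPM in Wt islets, against 0.823 to 25.1 CPM in NDL, and the duct keratin Krt19 was at 550 rescaled counts in Lag3-deficient islet 1b and at 0 or 1 in the other islet libraries. Stroma and endothelium genes, 12 in all, ran from 5.02 to 164 CPM in islets and 7.25 to 114 CPM in NDL. These ranges overlap but differ in make-up. Most of the sum in each NDL library was Pecam1, which averaged 51.5 CPM in NDL and 17.7 CPM in islets. The 164 CPM belonged to Lag3-deficient islet 1b, where Dcn stood at 76.3 CPM and Col3a1 at 51.55 CPM. In every other library, islet or NDL, Dcn was at most 3.32 CPM and Col3a1 at most 0.4405 CPM. B cell and plasma cell genes, 9 in all, ran from 91.2 to 765 CPM in islets and 22.8 to 106 CPM in NDL, led by Igj, the joining chain of secreted antibodies, which averaged 317 CPM in islets and 0.568 CPM in NDL. Pax5, which defines B cells, was at 0 in every library. Myeloid genes, 11 in the table, ran from 327 to 631 CPM in islets and 158 to 359 CPM in NDL, most of it Cst3, which was also strong in NDL. Of 5 tested, Cybb, a subunit of the phagocyte oxidase, passed as higher, at 99.7 CPM in islets and 0.737 CPM in NDL (limma adjusted p = 0.000767). Lyz2, the macrophage lysozyme, reached 1440 rescaled counts in Wt islet 1a and 565 in Lag3-deficient NDL 2, and Csf1r 458 in Wt islet 1b, while Emr1 was listed at 6 at most. Pecam1, Dcn, Col3a1, Pax5, Csf1r and Emr1 were singled out after their values were seen. The part of these cells in the differences above was not tested.

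**Figure D4:**
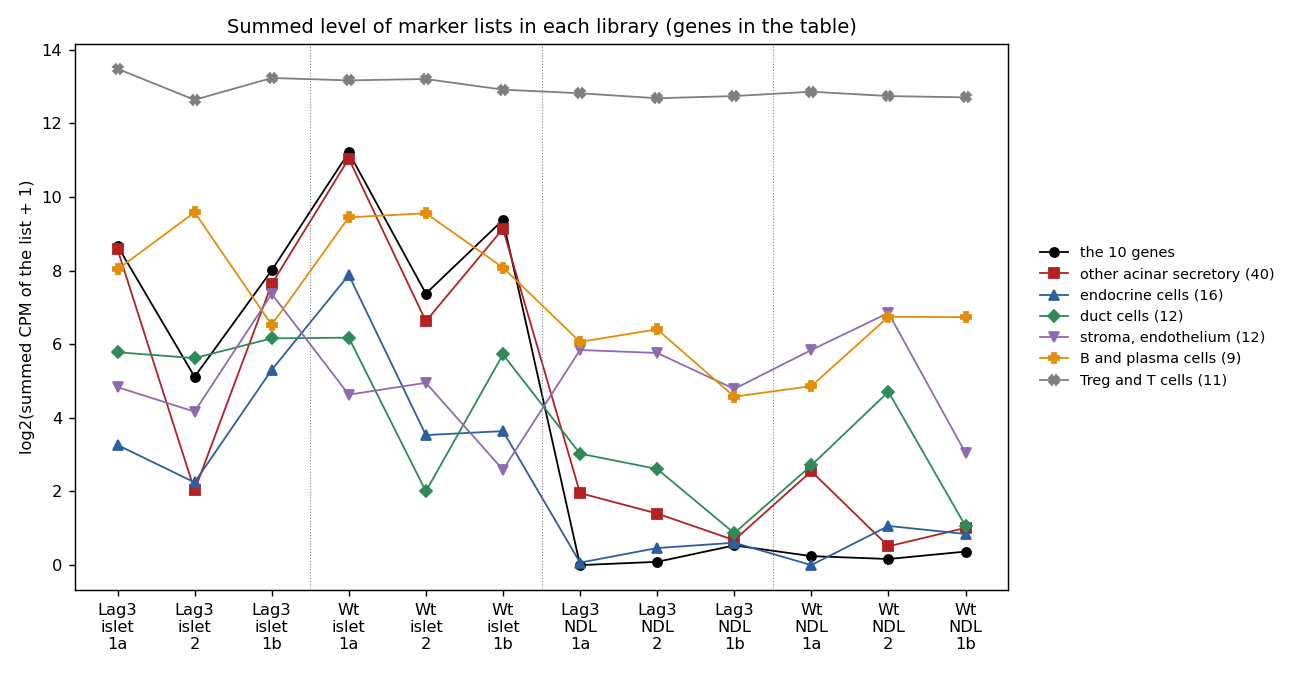
Summed level of each marker list in every library, on the scale log2(summed CPM + 1), with lines joining the values of a list for reading only and the number of genes in the legend. The 10 genes and the other acinar genes rise and fall together over the islet libraries and lie below 5 CPM in all NDL libraries, while the Treg and T cell list stays between 6368 and 11420 CPM.

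Genes whose level followed that of the 10 were then sought among 8888 other genes with a mean of at least 5 CPM in islets, by Pearson correlation of log2 levels with the mean profile of the 10 over the 6 islet libraries. The closest was Try5, a trypsinogen gene, at r = 0.99. It was followed by Tomm34, a mitochondrial import factor, at 0.99, the mitochondrial methionyl-tRNA synthetase gene Mars2 at 0.98, Afg3l1 at 0.98, the cold-inducible RNA-binding gene Cirbp at 0.98, Pias3 at 0.97, Scfd2 at 0.97, 9430015G10Rik at 0.97, Gabarapl1 at 0.97 and Mon2 at 0.97. Apart from Try5 these genes were not called between tissues, and Tomm34 averaged 130.1 CPM in islets and 175 CPM in NDL. The profiles rest on 6 libraries that share a scaling step, and 4.35% of all candidates exceeded 0.8. Of the 15 other acinar genes at this level, 11 exceeded 0.8, with a median of 0.87 against 0.22 for all candidates. Rnase1 ranked 13th at 0.96, Clps was at 0.92 and Cela1 at 0.92, whereas Klk1, a tissue kallikrein, was at 0.48. Without Lag3-deficient islet 2 and Wt islet 1a, the libraries farthest from the median, r was 0.92 for Try5, 0.93 for Rnase1, 0.74 for Clps, 0.54 for Cela1 and -0.04 for Try4.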

How the data were processed

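RNA of 12 Treg libraries was analysed, in 4 groups of 3. Per the submitters' processing notes, TopHat2, DESeq2 and mm10 were used, and their roles and versions are not given there. The deposited table named counts holds a signal, whole numbers that the authors had brought to nearly equal totals (spread 0.903%), so no count model was run. A second deposited table of 10317 genes, also a signal, served as an alternative. Values were scaled by TMM factors (30% ratio trim, 5% level trim) to CPM, and log2(CPM + 1) was fitted with limma 3.58.1 in R 4.3.3 with a mean-variance trend, over 10868 of 23361 genes for which 3 or more libraries reached 10 rescaled counts. Benjamini-Hochberg adjustment was made within each of 6 comparisons over all genes tested, with a threshold of 0.05. The procedure was tested on simulated data with the same noise in every library. The 10 genes, at or next to 0 in all NDL libraries, are unlike that setting. Alternatives were the pseudocount, the filter, RLE size factors, voom weights, the second table, a block by column number and leaving out libraries. Named genes outside the 10 were drawn from the strongest of each marker list, fixed defining genes and the 10 genes closest in profile. Not all of the strongest are named. Some others were named for likeness in sequence or after their values were seen. The 10 genes and the lists were chosen with earlier results of these data known. Gene positions come from GENCODE M21.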

Additional observations from a re-analysis of the deposited data

How the results depend on the processing

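The number of the 10 genes passing between islets and NDL, 7 when averaged over genotypes, was 4 with a pseudocount of 5 CPM, 1 with no filter on low values and 1 without the 1b columns, and 4 to 9 when single libraries were left out. Within Wt cells it was 3, and became 0 with no filter, 0 without the 1b columns, 1 in the second table and 9 with voom weights, and 0 to 8 when single libraries were left out. Within Lag3-deficient cells it was 0, and 1 with RLE size factors and 1 with voom weights. Between genotypes in islets, Ctrb1 changed sign to 0.11 without Lag3-deficient islet 2 and 0.49 without Wt islet 1a, and Cel to 0.61 and 0.59, with ranges of -1.62 to 0.49 for Ctrb1 and -2.26 to 0.61 for Cel when single libraries were left out. The cause was not tested. With a replicate block by column number, the counts were 6 averaged, 3 in Wt cells and 0 in the others; the numbers repeat within a group and do not establish pairing. Libraries numbered 2 had deviations correlated at -0.03 to 0.05 over 6 pairs, and the 1b columns at -0.09 to 0.12. The block joins 1a with 1b, so it does not model the higher Rn45s share of the 1b columns. Hidden depth limits all low values.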
